A study of Mus musculus with 12 samples.

Results

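The genes described here move iron out of the cell, bring it in, store it, sense it or release it from heme. They are Slc40a1, Heph, Tfrc, Steap3, Slc11a2, Fth1, Ftl1, Ireb2, Aco1 and Hmox1. All 10 were found by gene name among the non-control probes of a mouse array, where they have 18 of the 55681 probes and are 10 of the 24038 genes named. The set was chosen by the measured fall of the exporter Slc40a1, among the largest in Tbx3-high embryonic stem cells; the other 9 genes were added for their role. Values of the 10 in that comparison are therefore a description and carry no p-value.

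RNA came from 4 groups: mouse embryonic stem cells (mESC) labelled Tbx3-high (4 samples), mESC labelled Tbx3-low (4), induced pluripotent stem cells (iPSC) labelled Tbx3 null (2) and iPSC labelled Tbx3 wildtype (2). The series asks about the role of Tbx3, a transcription factor with a T-box DNA-binding domain, in pluripotency. The labels give no age, strain, culture condition or null allele, and no account of how high and low cells were separated. No source says whether samples of a group came from separate cultures or clones, so p-values measure only the spread between these samples, which may be technical.

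Each sample was 50 ng of RNA on a one-colour array. A value below is the log2 signal minus that array's own 75th percentile, so that 0 is a brightness that most probes do not reach. Of all spots, 55.9% to 64.8% lay well above background on the mESC arrays. The shares were 63.0% and 62.4% on the null-labelled arrays, against 68.6% and 68.0% on the wild-type arrays. The mESC and iPSC arrays sat on separate slides, so levels were compared only within a cell type. The Tbx3-high arrays occupied other columns of the mESC slide than the Tbx3-low arrays, so group and column cannot be told apart, and the same holds for the iPSC slide. All 7 pluripotency markers were well above background on every array. Of 11 macrophage markers, 6 to 8 were well above background on all arrays of a group, and Lyz2 and C1qa on none. Their summed signal, in multiples of the 75th percentile, was 12.2 to 20.6 on Tbx3-high arrays, against 12.3 to 17.2 on Tbx3-low arrays, and 19.8 to 20.6 on null-labelled arrays, against 22.7 to 25.4 on wild-type arrays. In the mESC 2 of 6 tested, Cd14 (0.47 ± 0.15) and C1qb (0.27 ± 0.08), were higher in Tbx3-high cells; the count was 0 or 1 as each array was left out and 0 with the replicate block. The part of macrophages in the iron genes was not tested.

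The single Tbx3 probe was higher in Tbx3-high than in Tbx3-low mESC, by 1.33 ± 0.08 (SE; limma, adjusted p = 7.3e-07). It was not lower on the arrays labelled Tbx3 null. There it read 5.48 to 5.51, against 5.0 to 5.35 on the wild-type arrays (difference 0.32 ± 0.11, adjusted p = 0.0482). The deleted part of the gene is unknown, so this probe does not check the label, and the samples are called null-labelled.

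Cells take up iron mainly as transferrin, which binds the transferrin receptor (Tfrc) and is drawn into endosomes. There Steap3 reduces the iron and Slc11a2 carries it into the cytosol. Surplus iron is stored in ferritin shells of heavy (Fth1) and light (Ftl1) chains or leaves through ferroportin (Slc40a1), helped by the copper oxidase hephaestin (Heph). The iron regulatory proteins Aco1 and Ireb2 bind hairpins in these mRNAs when iron is scarce. That binding blocks translation of both ferritins and of ferroportin and keeps the Tfrc mRNA from decay. Hmox1 opens the heme ring and frees its iron.

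In several of these genes 1 probe gave a change and another did not, or the probes gave changes of different size. For Tfrc, Steap3, Slc11a2 and Ftl1 the probes from inside the transcript are shown, because these differences rest on them; the Heph probes, which also differ, are given by position with their values. Each is a 60-base array probe, written 5′ to 3′ in lower case throughout as the deposited arrays give it, in the sense of the mRNA. Positions are on mm9, and the 2 longer intervals are longer than the probe, which the array design therefore places across an intron.

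Tfrc A_65_P06446, chr16:32620470-32620529, plus strand: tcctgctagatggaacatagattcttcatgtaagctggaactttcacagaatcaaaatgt
Tfrc A_51_P167876, chr16:32624877-32625093, plus strand: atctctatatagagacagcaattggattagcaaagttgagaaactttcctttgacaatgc
Steap3 A_55_P2096883, chr1:122124269-122124328, minus strand: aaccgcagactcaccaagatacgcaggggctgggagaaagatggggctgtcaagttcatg
Slc11a2 A_52_P254298, chr15:100240516-100240575, minus strand: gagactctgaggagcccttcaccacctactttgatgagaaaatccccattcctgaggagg
Ftl1 A_55_P1983959, chr7:52714014-52714495, minus strand: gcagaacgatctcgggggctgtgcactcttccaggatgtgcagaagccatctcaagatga

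The design places these probes at bases 1228 (Tfrc A_65_P06446), 1732 (Tfrc A_51_P167876), 1792 (Steap3), 253 (Slc11a2) and 462 (Ftl1) of their transcripts. The brighter probe of each of these genes lies further towards the 3′ end, at bases 4288 (Tfrc A_52_P228236), 2817 (Steap3 A_55_P2096887), 2961 (Slc11a2 A_51_P388737) and 915 (Ftl1 A_55_P1968245).

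In the iPSC, 3 of the 10 genes were higher on the null-labelled arrays (Tfrc, Slc11a2 and Fth1), Heph was lower, and 6 did not pass. The Heph probe entered the test only through the wild-type arrays, where it is high. A gene is read here by its brightest probe, and it passed where the adjusted p of limma was under 0.05. Of all 17756 genes tested, 34.7% passed, 19.4% as higher and 15.3% as lower, so the share of these 10 that passed is near the background. The median change of the 10 was 0.36, against 0.07 over all genes. Null-labelled and wild-type values were fully apart for 9 of the 10, where the background was 71.3%. By probe, 6 of the 17 tested passed as higher and 1 as lower, against a background of 28.3% in either direction, 15.5% as higher and 12.9% as lower. The arrays were fully apart for 14 of the 17, with a background of 66.4%.

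In the mESC, Slc40a1, Heph, Tfrc and Fth1 passed as lower in the Tbx3-high cells and 6 genes did not pass. The background was 31% of 15884 genes in either direction, 17.2% as higher and 13.9% as lower. By probe, 7 of 16 passed as lower and 0 as higher, where 25.9% of all probes tested passed, 11.4% as lower and 14.5% as higher. High and low arrays did not overlap for 4 genes and 7 probes, with backgrounds of 35.5% and 29.2%. The median change of the 10 genes was -0.17, against 0.04 over all genes. Nothing is read from these counts, because this comparison chose the set.

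**Figure D1:**
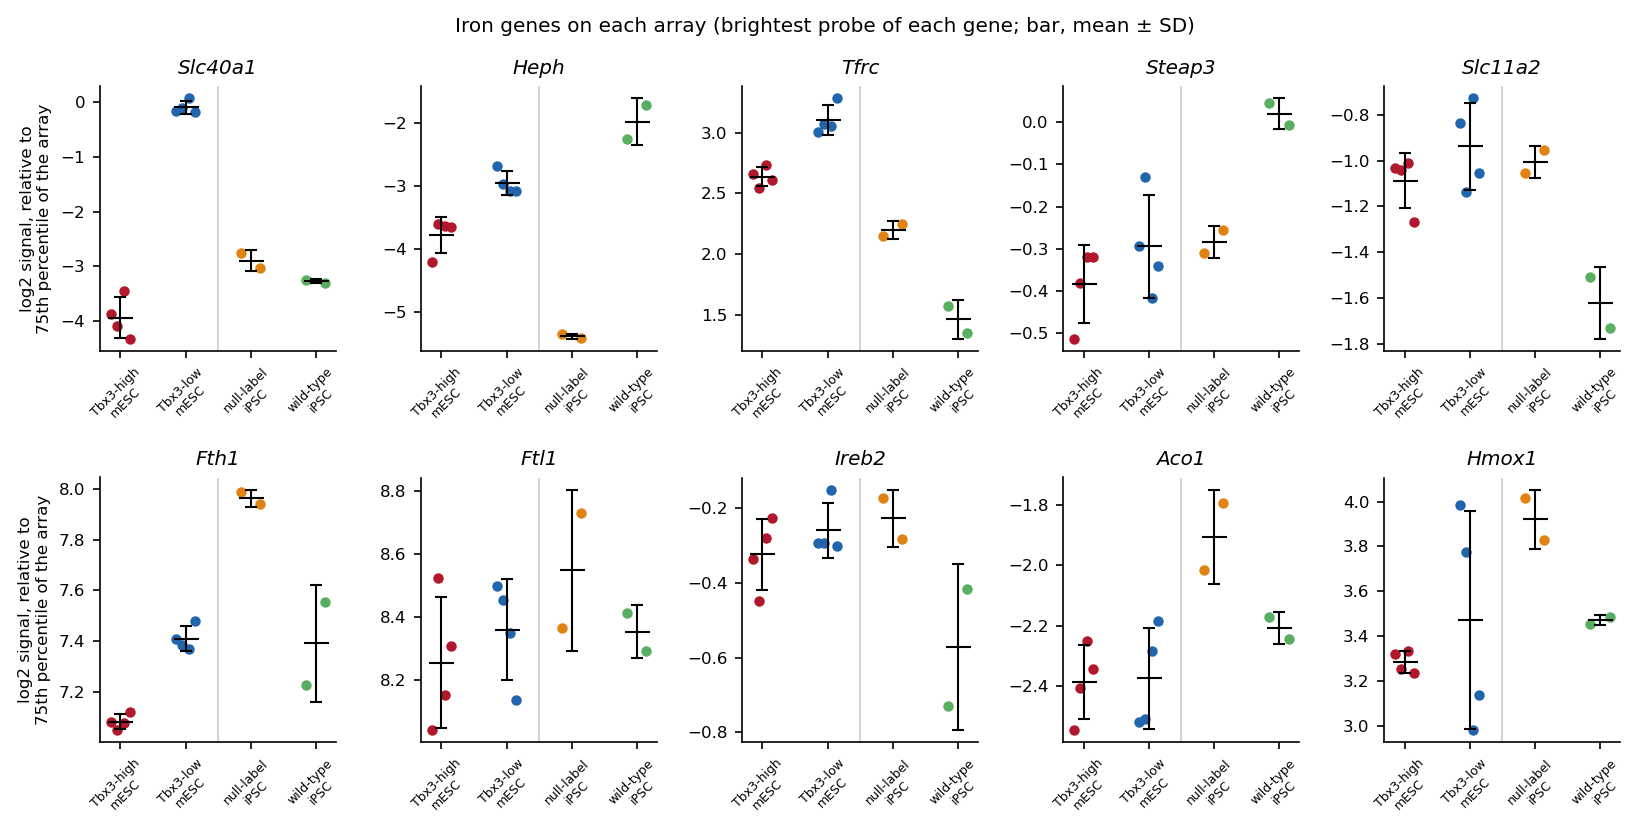
Log2 signal of each iron gene on each array, relative to the array's 75th percentile (vertical axis), by group (horizontal axis); a point is 1 array and the bar is the mean ± SD, with the mESC left and the iPSC right of the grey line. Slc40a1 stands between -4.33 and -3.46 on the Tbx3-high arrays, and between -0.18 and 0.08 on the Tbx3-low arrays.

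Slc40a1 makes ferroportin, the only iron exporter known in vertebrate cells. Its 1 probe (A_51_P389988, chr1:45965255-45965314, minus strand) read -3.87, -4.09, -3.46 and -4.33 in the Tbx3-high mESC, against -0.15, -0.11, 0.08 and -0.18 in the Tbx3-low mESC. All 4 high arrays lay far below all 4 low arrays. The means were -3.94 ± 0.37 in the high and -0.09 ± 0.12 in the low cells (SD, n = 4 each), a difference of -3.85 ± 0.16 (SE), or 14.4-fold. It ranked 12 among the falls of the 15884 genes tested. The probe was well above background on all 8 arrays. The difference was -3.86 in slide row 1 and -3.84 in slide row 2. With normexp background correction in place of the processed signal it was -2.13. In the deposited series table, whose method is not given, it was -2.51.

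In the iPSC the same probe read -2.76 and -3.03 on the null-labelled arrays, against -3.25 and -3.30 on the wild-type arrays. The groups did not overlap, but the difference of 0.38 ± 0.23 did not pass (adjusted p = 0.271). It passed under normexp correction (0.40, adjusted p = 0.0219) and in the series table (0.39, adjusted p = 0.0293). The adjusted p ran from 0.0219 to 0.639 over 13 alternatives, and all 13 put the null-labelled arrays higher. Whether this difference differs from the mESC one was not tested.

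Heph oxidises the iron that ferroportin releases. On its brightest probe (A_55_P1994194, chrX:93769721-93769780, plus strand) Heph read -5.36 and -5.41 on the null-labelled arrays, against -2.24 and -1.71 on the wild-type arrays. The difference was -3.41 ± 0.23 (adjusted p = 3.8e-06). Of the null-labelled arrays 1 of 2 was well above background, so the probe entered the test through the wild-type arrays, where it is high, and the size of its fall is uncertain. Over 13 alternatives, which reuse these arrays, the change ran from -3.68 to -1.64. The smallest change came with normexp correction.

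In the mESC the same Heph probe read -4.20, -3.61, -3.64 and -3.64 in Tbx3-high cells, against -2.68, -2.96, -3.08 and -3.08 in Tbx3-low cells. The groups did not overlap and the difference was -0.82 ± 0.16, with -1.08 in slide row 1 and -0.56 in slide row 2. Under normexp correction it was -0.27 and no longer passed. The array annotation lists 3 RefSeq transcripts for this probe. A second probe, A_55_P1994190 (chrX:93725815-93725874), lists 1 RefSeq transcript and read -5.94 and -4.78 on the null-labelled arrays, against -5.17 and -4.96 on the wild-type arrays. Those ranges overlap, and the difference of -0.30 ± 0.59 did not pass (adjusted p = 0.769). The last, A_52_P498219 (chrX:93726574-93726633), was not above background on any array of any group. The fall of Heph in the iPSC thus rests on 1 of its 3 probes.

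Tfrc, the transferrin receptor, had 3 probes that agreed in direction within each comparison, and all passed. The probes of Steap3 and of Hmox1 also agreed in direction, but did not all pass. On A_52_P228236 (chr16:32632255-32632314, plus strand), which is printed on 10 spots, Tfrc read 2.15 and 2.25 on the null-labelled arrays, against 1.58 and 1.35 on the wild-type arrays. The null-labelled arrays were higher by 0.74 ± 0.12 (adjusted p = 0.00121), or 1.67-fold. The call held in 13 of 13 alternatives, with changes from 0.60 to 0.85.

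Of the Tfrc probes printed above, A_51_P167876 was also higher on the null-labelled arrays, by 0.64 ± 0.10 (adjusted p = 0.00111), in 12 of 12 alternatives. A_65_P06446 was higher by 0.43 ± 0.13 (adjusted p = 0.0276), with 1.72 and 1.82 on the null-labelled arrays, against 1.5 and 1.18 on the wild-type arrays. That last call ended in 10 of 12 alternatives, with adjusted p up to 0.197, although the values did not overlap.

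In the mESC the order of the groups was the other way on all 3 Tfrc probes. A_52_P228236 read 2.66, 2.55, 2.73 and 2.61 in Tbx3-high cells, against 3.0, 3.07, 3.06 and 3.29 in Tbx3-low cells, a difference of -0.47 ± 0.08. A_65_P06446 read 0.18, 0.37, 0.42 and 0.27 in the high cells, against 0.92, 0.89, 0.94 and 0.77 in the low cells (-0.57 ± 0.09). A_51_P167876 differed least, by -0.24 ± 0.07. No high array reached the lowest low array on any of the 3 probes. The call of A_51_P167876 ended in 10 of 19 alternatives, the replicate block among them, and those of the other 2 probes ended in slide row 2 alone. Whether the mESC and iPSC differences differ was not tested.

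Steap3, the endosomal ferrireductase, differed between its 2 probes in the mESC. On the probe printed above it read -1.05, -1.06, -1.20 and -1.10 in Tbx3-high cells, against -0.54, -0.60, -0.52 and -0.57 in Tbx3-low cells. The groups were well apart (-0.54 ± 0.11). The brighter probe, A_55_P2096887 (chr1:122123244-122123303, minus strand), overlapped between the groups, with a difference of -0.09 ± 0.08. In the iPSC neither probe passed: -0.30 ± 0.11 (adjusted p = 0.0651) on the brighter and -0.14 ± 0.16 (adjusted p = 0.598) on the other. The brighter probe passed as lower in 3 of 13 alternatives, with adjusted p from 0.0275 to 0.229.

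Slc11a2, the proton-coupled iron carrier of endosomes also called DMT1, was higher on the null-labelled arrays by its brighter probe, A_51_P388737 (chr15:100218333-100218392, minus strand). It read -1.05 and -0.96 on the null-labelled arrays, against -1.51 and -1.73 on the wild-type arrays (0.62 ± 0.15, adjusted p = 0.0124). The call ended without null-labelled replicate 2 or without wild-type replicate 2, with adjusted p up to 0.0875. The probe near the start of the transcript, printed above, gave 0.15 ± 0.19 (adjusted p = 0.638). In the mESC neither probe separated the groups, at -0.15 ± 0.10 and 0.10 ± 0.13. Slc11a2 is known to have transcripts with different 3′ ends, and the array annotation lists 1 RefSeq transcript for the brighter probe and 2 for the other.

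**Figure D2:**
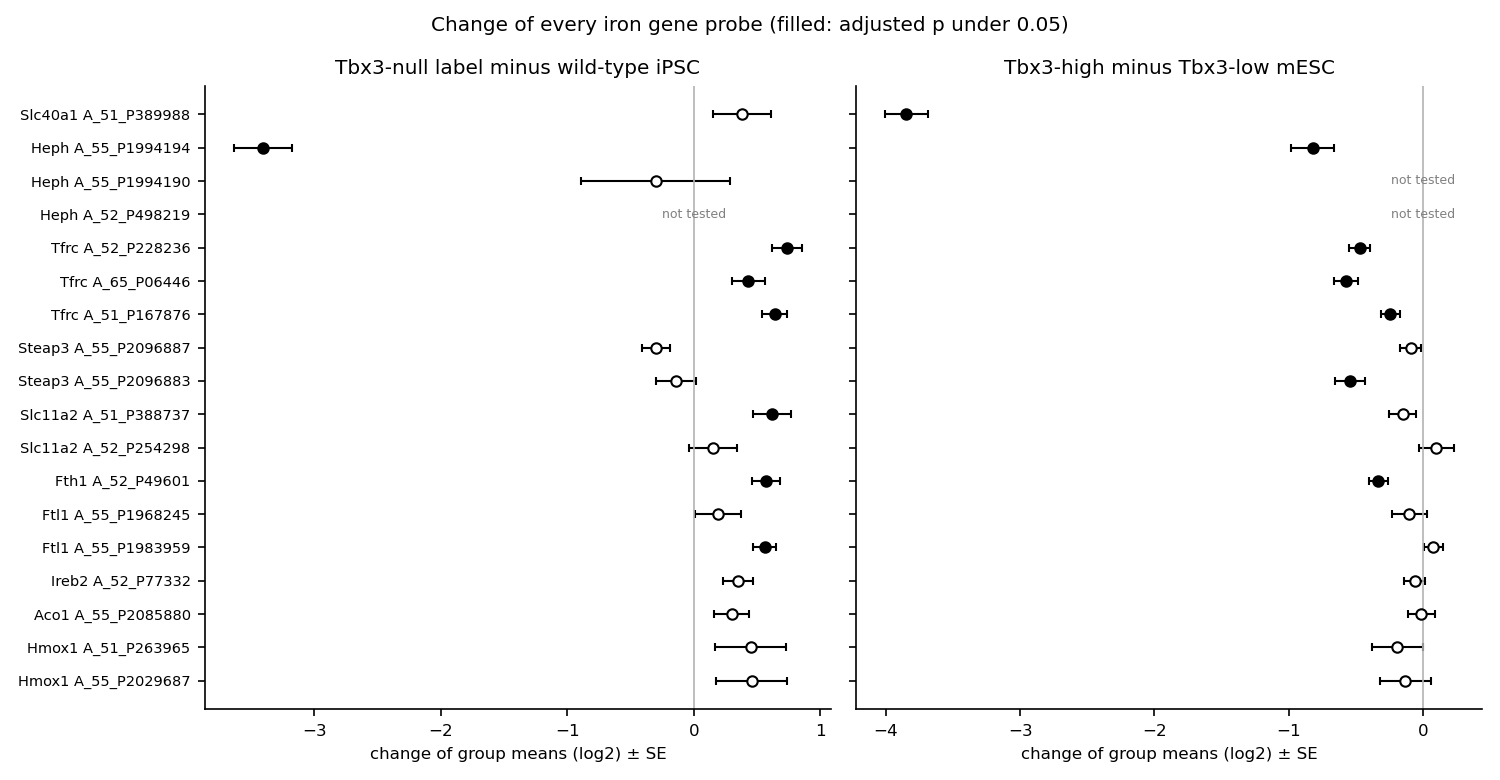
Change of each of the 18 probes (rows) as a log2 difference of group means ± SE (horizontal axis), null-labelled minus wild-type iPSC on the left and Tbx3-high minus Tbx3-low mESC on the right; filled points passed at an adjusted p under 0.05. The filling in the mESC panel is a description only, because that comparison chose the set. The 3 Tfrc probes lie right of 0 in the iPSC panel and left of it in the mESC panel.

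Fth1, the ferritin heavy chain with its iron-oxidising centre, was among the brightest transcripts. Its 1 probe (A_52_P49601, chr19:10059485-10059544, plus strand) read 7.99 and 7.94 on the null-labelled arrays, against 7.23 and 7.55 on the wild-type arrays. The difference was 0.57 ± 0.11 (adjusted p = 0.00262), or 1.49-fold. The call ended in 1 of 13 alternatives, a fit on the iPSC groups alone (adjusted p = 0.0625). In the mESC it read 7.08, 7.05, 7.08 and 7.12 in the high cells, against 7.41, 7.38, 7.37 and 7.48 in the low cells. The groups did not overlap, and the difference of -0.33 ± 0.07 was -0.33 in slide row 1 and -0.32 in slide row 2. Neither row passed alone, with fewer arrays.

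Ftl1, the light chain that helps iron form its mineral core, has probes that disagreed in the iPSC. The probe printed above read 7.44 and 7.39 on the null-labelled arrays, against 6.81 and 6.90 on the wild-type arrays (0.56 ± 0.09, adjusted p = 0.00154), in 12 of 12 alternatives. The brighter probe, A_55_P1968245 (chr7:52713309-52713368, minus strand), read 8.37 and 8.73 on the null-labelled arrays, against 8.41 and 8.29 on the wild-type arrays (0.19 ± 0.18, adjusted p = 0.494). Its annotation lists 4 RefSeq models, and the other probe lists 1. Ftl1 has near-identical copies in the mouse genome, so what the brighter probe reads is uncertain. In the mESC neither probe separated the groups (-0.10 ± 0.13 and 0.08 ± 0.07).

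Neither sensor passed in either comparison. Ireb2, which is active when its breakdown by the iron- and oxygen-dependent ligase Fbxl5 stops, has 1 probe (A_52_P77332, chr9:54756566-54756625, plus strand). It read -0.17 and -0.28 on the null-labelled arrays, against -0.73 and -0.42 on the wild-type arrays. The difference of 0.35 ± 0.12 did not pass (adjusted p = 0.0577, from 0.021 to 0.378 over 13 alternatives). Aco1, an aconitase that becomes an RNA-binding protein when it loses its iron-sulfur cluster, has 1 probe (A_55_P2085880, chr4:40145780-40145839, plus strand). It read -2.02 and -1.80 on the null-labelled arrays, against -2.17 and -2.24 on the wild-type arrays (0.30 ± 0.14, adjusted p = 0.155). In the mESC the groups overlapped for both genes, with differences of -0.06 ± 0.08 for Ireb2 and -0.01 ± 0.10 for Aco1.

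Hmox1, the inducible heme oxygenase, was not split by Tbx3 group in the mESC but followed the row of the slide in the Tbx3-low cells. On A_51_P263965 (chr8:77624207-77624266, plus strand) it read 3.32, 3.25, 3.33 and 3.23 in Tbx3-high cells, against 3.99, 3.78, 2.98 and 3.14 in Tbx3-low cells. Low replicates 1 and 2, which sat in slide row 1, lay above all high arrays, and low replicates 3 and 4, in row 2, lay below them. The difference was -0.59 in row 1 and 0.22 in row 2, against -0.19 ± 0.19 over all 8 arrays, which did not pass; row 1 alone did.

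A second Hmox1 probe further upstream, A_55_P2029687 (chr8:77620797-77620856, plus strand), gave the same split. It read 0.21, 0.30, 0.27 and 0.36 in the high cells, against 0.82, 0.82, -0.09 and 0.09 in the low cells. The difference was -0.57 in row 1 and 0.31 in row 2. Replicates 1 and 2 of both groups are the row 1 arrays, so replicate number and slide row cannot be told apart. In the iPSC, Hmox1 read 4.02 and 3.83 on the null-labelled arrays, against 3.45 and 3.49 on the wild-type arrays. The probes gave 0.45 ± 0.28 (adjusted p = 0.278) and 0.46 ± 0.28 (adjusted p = 0.263), and neither passed. The fit takes its spread from all groups. On A_51_P263965 the SD was 0.49 on Tbx3-low arrays, against 0.13 on null-labelled and 0.02 on wild-type arrays. In the limma fit of the iPSC groups alone the adjusted p was 0.0747 and 0.066.

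**Figure D3:**
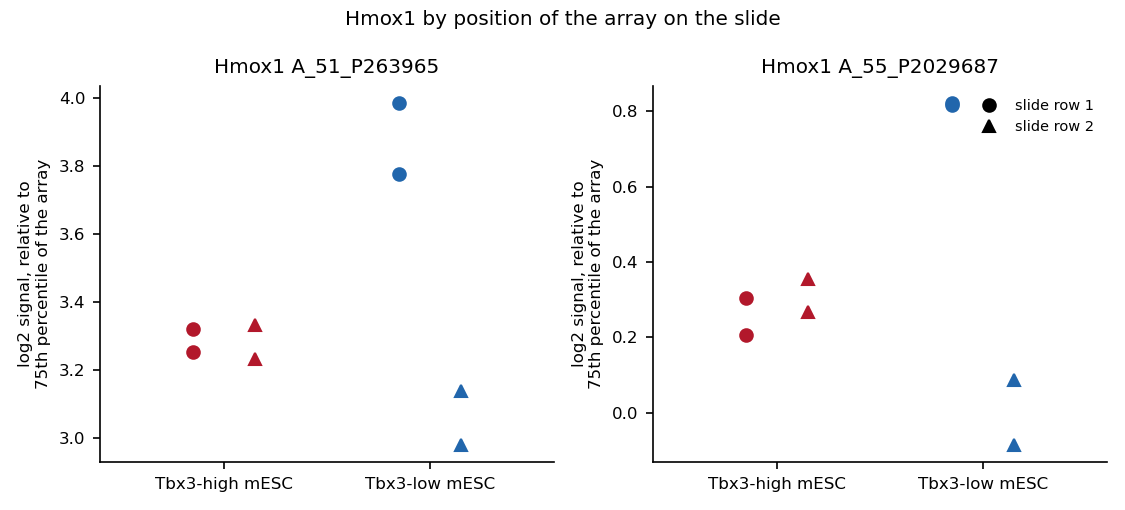
Log2 signal of the 2 Hmox1 probes, relative to the array's 75th percentile (vertical axis), on the Tbx3-high and Tbx3-low mESC arrays (horizontal axis); each point is 1 array, a circle in slide row 1 and a triangle in slide row 2. In the Tbx3-low group the row 1 arrays lie above and the row 2 arrays below all Tbx3-high arrays on both probes.

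Beyond the 10 genes, 84 others were listed by role, and 76 of them were tested in each comparison. They are genes of iron and heme handling, 12 of the antioxidant programme of the factor Nrf2, and other mRNAs with an iron-responsive element. In the iPSC 27 were higher on the null-labelled arrays, 12 lower, and 37 did not pass, with a median change of 0.22. The Nrf2 list held 9 of these 27 and 0 of the 12 lower. The list of other mRNAs held 3 of the 27 and 1 of the 12. The 27 became 12 without null-labelled replicate 1 and 14 without wild-type replicate 1. In the mESC 14 were higher in Tbx3-high cells, 13 lower, and 49 did not pass, with a median of 0.04. The Nrf2 list held 0 of these 14 and 4 of the 13 lower. The list of other mRNAs held 2 of the 14 and 0 of the 13. Over all genes tested in the iPSC 34.7% passed, 19.4% as higher and 15.3% as lower. In the mESC 31% passed, 17.2% as higher and 13.9% as lower. These shares are the background of the lists below too.

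Genes of transferrin handling and hepcidin control moved in both directions. In the iPSC 6 of 14 tested were lower and 3 higher on the null-labelled arrays. Trf, transferrin itself, was lower by -2.10 ± 0.16 (adjusted p = 7.4e-06) and Tfr2, the second transferrin receptor, by -1.85 ± 0.15 (adjusted p = 1.4e-05). Bmp6, the ligand that induces hepcidin in liver, was higher by 0.83 ± 0.14, and the heme carrier Slc48a1 by 0.66 ± 0.11. In the mESC 5 of 15 were higher and 4 lower in Tbx3-high cells. Trf was higher by 1.44 ± 0.11 (adjusted p = 5.2e-06) and the sorting nexin Snx3, which recycles the transferrin receptor, by 0.37 ± 0.07. The hepcidin-suppressing protease Tmprss6 was lower (-0.69 ± 0.09), as was the metalloreductase Steap2 (-0.65 ± 0.09). The 5 higher became 3 with the replicate block, under normexp correction, and without high replicate 1 or 3 or low replicate 1, 2 or 3, and 1 in slide row 2.

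Trf is also made by visceral endoderm, and some markers of that tissue moved too. Of 9 endoderm markers tested in the iPSC, 4 were lower on the null-labelled arrays and 1 higher. The summed signal of all 12 markers was 0.657 to 0.683 on the null-labelled arrays, against 0.86 to 0.891 on the wild-type arrays, in multiples of the 75th percentile. In the mESC it was 2.59 to 4.01 on Tbx3-high arrays, against 2.31 to 2.72 on Tbx3-low arrays, with 2 of 8 higher and 0 lower. The 4 lower became 2 under normexp correction and without null-labelled replicate 1 or wild-type replicate 2, and the 2 higher became 4 without high replicate 2. Ttr was not above background in any group. Afp was above it on wild-type iPSC arrays only, and entered the test through them as 1 of the 4 lower. Gata6, which specifies primitive endoderm, was lower on the null-labelled arrays (-1.90 ± 0.19) and higher in Tbx3-high mESC (1.49 ± 0.13). Amn was the 1 higher on the null-labelled arrays (0.80 ± 0.14). Sox7 did not pass in the iPSC (0.21 ± 0.23) or the mESC (-0.16 ± 0.16), nor did Cubn in the mESC (-0.01 ± 0.20). The part of such cells in the iron genes was not tested. In bulk RNA, fewer cells of a type and less RNA per cell cannot be told apart.

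Fibroblast markers, which feeder cells would carry, summed to 1.14 to 1.20 on the null-labelled arrays, against 1.87 to 2.03 on the wild-type arrays. On Tbx3-high mESC arrays they summed to 2.91 to 27.7, the highest on replicate 2 with its Thy1 signal, against 2.66 to 2.96 on Tbx3-low arrays. Of the 8 tested in the iPSC, Lum was higher, Col1a1 was lower and 6 did not pass. Lum was at least 1.51-fold higher. It was above background on no wild-type array, so it entered the test through the null-labelled arrays, where it is high. Col1a1 had a mean of -2.24 on the null-labelled arrays, against 0.08 on the wild-type arrays (-2.32 ± 0.15). Of the 5 tested in the mESC, Col1a1 was higher in Tbx3-high cells (1.54 ± 0.11) and 0 were lower. Postn was not above background on any array. The part of feeder cells in the iron genes was not tested either.

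Markers of erythroid cells, which handle much iron and heme, were apart in both comparisons as a sum, but moved in both directions singly. Their summed signal was 1.39 to 1.51 on the null-labelled arrays, against 1.10 to 1.13 on the wild-type arrays. In the mESC it was 1.38 to 1.53 on Tbx3-high arrays, against 1.58 to 1.67 on Tbx3-low arrays. Of all single genes tested, 71.3% were fully apart in the iPSC and 35.5% in the mESC. Epor (1.33 ± 0.13) and Gata1 (1.1 ± 0.23) were higher on the null-labelled arrays, and the globin Hba-a1 was lower (-1.24 ± 0.15). The globins Hbb-y (-0.55 ± 0.76) and Hbb-bh1 (-0.16 ± 0.38) did not pass there. Of 7 erythroid markers tested in the iPSC 2 were higher and 1 lower on the null-labelled arrays, and the 2 became 1 without null-labelled or wild-type replicate 1. Of 5 tested in the mESC 1 was lower in Tbx3-high cells, a call that ended as any 1 of the 8 arrays was left out. The part of such cells in the iron genes was not tested.

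Other exporters and copper oxidases included 2 that were lower on the null-labelled arrays of 6 tested, with 0 higher. These were Flvcr2, a transporter related to the heme exporter Flvcr1 (-1.74 ± 0.16, adjusted p = 2.8e-05), and the copper pump Atp7a (-0.41 ± 0.10). The 2 became 1 without null-labelled or wild-type replicate 1. Both were higher in Tbx3-high mESC, by 0.43 ± 0.11 for Flvcr2 and 0.33 ± 0.07 for Atp7a, with 0 of 5 lower. That count was 1 in slide row 1 and 0 in slide row 2.

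Among storage genes, chaperones and sensors, 3 of 9 were higher on the null-labelled arrays and 0 lower. Pcbp4, a relative of the poly(rC)-binding iron chaperones, was higher by 1.42 ± 0.11 (adjusted p = 7.5e-06) and the siderophore-synthesis enzyme Bdh2 by 0.99 ± 0.17. In Tbx3-high mESC Pcbp4 was lower (-0.50 ± 0.08) and Fbxl5, which breaks down Ireb2, higher (0.41 ± 0.10), and the other 7 of 9 did not pass. The number higher there ran from 0 in slide row 1 to 3 with the mESC groups alone.

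Most genes of mitochondrial iron and iron-sulfur clusters did not pass. In the iPSC 4 of 20 were higher and 1 lower on the null-labelled arrays. The cysteine desulfurase Nfs1, which supplies the sulfur, was lower (-1.02 ± 0.10, adjusted p = 5.7e-05), and the ferredoxin Fdx2 and the assembly factor Iba57 were higher (0.47 ± 0.11 and 0.46 ± 0.12). The 4 higher became 0 without null-labelled or wild-type replicate 1 and with the iPSC groups alone, and 1 with the replicate block. The 1 lower became 4 under quantile normalization, scaling on detected probes and in the series table. In the mESC 2 of 20 were higher and 1 lower in Tbx3-high cells. These were the late assembly factors Isca2 (0.33 ± 0.08) and Bola3 (0.32 ± 0.07), which were higher, and Nfu1 (-0.29 ± 0.08), which was lower. The count lower was 0 without high replicate 1 or 2 or low replicate 3, and 2 without high replicate 3; the count higher was 1 in slide row 1 and 0 in slide row 2.

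Heme synthesis was mixed as well. In the iPSC 3 of 8 enzymes were higher on the null-labelled arrays, among them the first enzyme of the pathway, Alas1 (0.48 ± 0.16). The 3 became 1 without null-labelled replicate 1 or 2 or wild-type replicate 1, with the replicate block, under quantile normalization and with scaling on detected probes, and 0 with the iPSC groups alone. Ppox, the next to last, was lower (-0.98 ± 0.13, adjusted p = 0.00039). In Tbx3-high mESC Ppox was higher (0.59 ± 0.09) and Urod too (0.23 ± 0.06), and Uros (-0.42 ± 0.07) and ferrochelatase, Fech (-0.36 ± 0.09), which inserts the iron, were lower. The 2 higher became 1 without high replicate 3 or low replicate 2, and 0 in slide row 2.

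Of 4 other genes of heme breakdown, 2 were higher on the null-labelled arrays, the biliverdin reductase Blvrb (0.86 ± 0.19) and the constitutive heme oxygenase Hmox2 (0.56 ± 0.15). The 2 became 0 without null-labelled or wild-type replicate 1, and 1 without null-labelled or wild-type replicate 2. The other biliverdin reductase, Blvra, was lower (-0.63 ± 0.12). In Tbx3-high mESC 1 of 4, Blvrb, was lower (-0.50 ± 0.13), and in slide row 1 alone 0 were.

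Nrf2 is the factor that induces Hmox1 and both ferritins under oxidative stress. Of 11 tested genes of its antioxidant programme, which here includes Nrf2 and its inhibitor Keap1, 9 were higher on the null-labelled arrays and 0 lower, with a median change of 0.54. The largest were Srxn1, which repairs peroxiredoxins (1.26 ± 0.14, adjusted p = 8.8e-05), and Gclm, a subunit of the enzyme that starts glutathione synthesis (1.25 ± 0.10, adjusted p = 1e-05). The count of 9 fell to 4 without null-labelled replicate 1, to 5 without wild-type replicate 2 and to 5 in the series table. In Tbx3-high mESC 4 of the 11 were lower and 0 higher, with a median of -0.14. Among them were Gclm (-0.88 ± 0.07, adjusted p = 6.7e-06) and Gpx4, the lipid peroxide-reducing enzyme that holds off ferroptosis (-0.64 ± 0.07, adjusted p = 4.3e-05). In slide row 2 alone 2 were lower.

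Other mRNAs with a known iron-responsive element numbered 4 tested, of which 3 were higher and 1 lower on the null-labelled arrays. Cdc14a (0.78 ± 0.13) and Cdc42bpa (0.58 ± 0.09), whose elements are described for human transcripts, were higher, and Epas1, the hypoxia factor HIF2-alpha, was lower (-0.39 ± 0.11). The call of a lower gene ended as any 1 of the 4 iPSC arrays was left out, and also with the iPSC groups alone, with no filter on dim probes and with the mean of a gene's probes. In Tbx3-high mESC Cdc42bpa (0.37 ± 0.06) and Epas1 (0.28 ± 0.08) were higher and 0 were lower. The 2 became 1 without high replicate 1 or 3 or low replicate 2 or 4, and 0 in slide row 2.

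**Figure D4:**
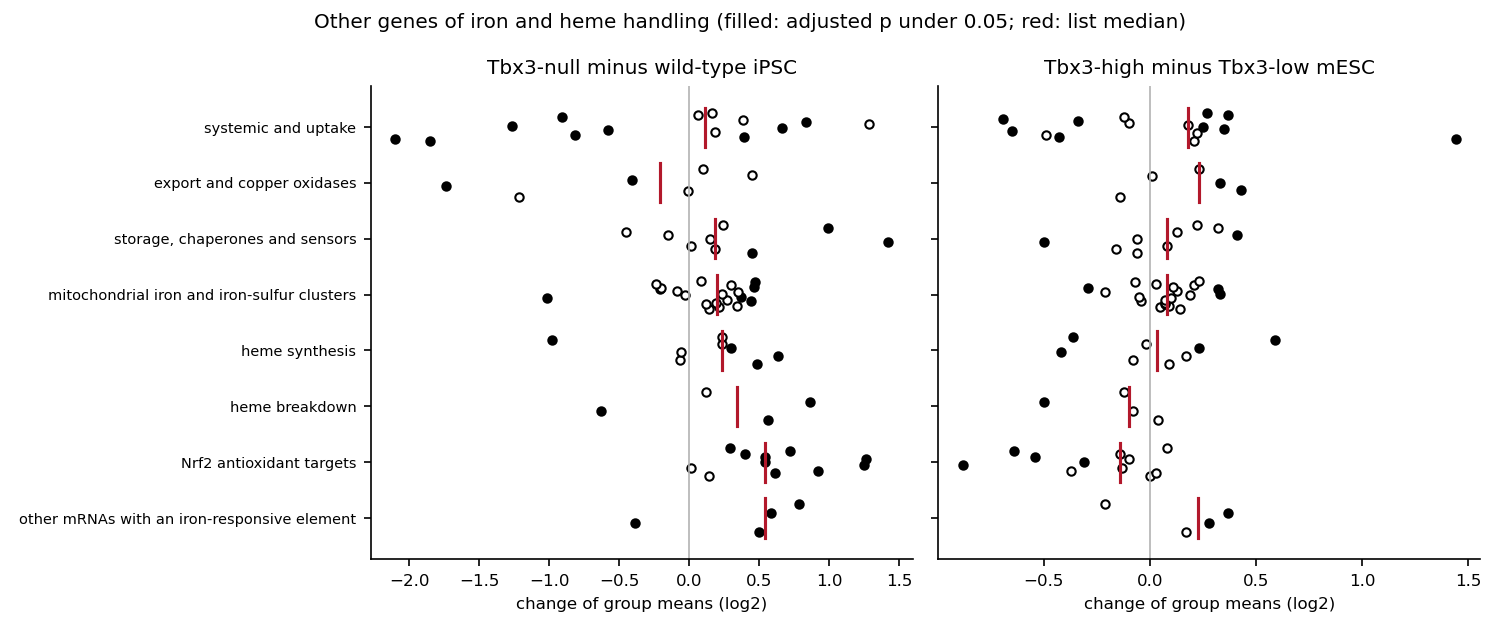
Change of each other listed gene, by list (rows), as a log2 difference of group means (horizontal axis). Null-labelled minus wild-type iPSC is on the left and Tbx3-high minus Tbx3-low mESC on the right. Each point is 1 gene of iron and heme handling, of the Nrf2 programme or of the other mRNAs with an iron-responsive element. It is filled where the adjusted p of limma was under 0.05, and the red line is the median of the list. The Nrf2 list has its median at 0.54 in the iPSC panel and at -0.14 in the mESC panel.

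The genes whose values over the 12 arrays, centred within each cell type, were most like those of Slc40a1 were Dok2, Oasl2, Fgf5, Acsl5 and Pbx3. Their Pearson r was 0.9924, 0.9917, 0.9903, 0.9894 and 0.9892 among 15704 genes ranked. All 5 were lower in the Tbx3-high cells. So high an r fixes this in advance, because the fall of Slc40a1 in the mESC dominates its centred values. The r is a description over arrays that share slides and groups. Dok2, a docking protein of tyrosine kinase signalling, and Acsl5, a fatty acid activating enzyme, both differed by -1.90 ± 0.08. Pbx3, a homeobox factor, differed by -0.69 ± 0.06. Oasl2, an interferon-induced gene, was at least 28-fold lower, and Fgf5, a marker of the primed epiblast, at least 7.18-fold lower. Neither was well above background on any Tbx3-high array, so both entered that comparison through the Tbx3-low arrays, where they are high. Of the other iron genes, Tfrc (r = 0.69) and Fth1 (r = 0.63) were closest and Slc11a2 followed at 0.35, with the other 6 at or below 0.29. The r of Tfrc and Fth1 largely restates their difference between the mESC groups.

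The RefSeq promoter table for build GRCm38.p6, which covers bases from 250 before to 50 after each start, held 11 windows for 6 of the 10 genes. Heph, Hmox1, Slc11a2 and Slc40a1 had none. The windows were searched on both strands for the core of the hypoxia-response element, ACGTG (in 19.6% of all 32851 windows), the antioxidant element TGACNNNGC (12.4%) and the T-box half-site GGTGTGA (3.98%). Only Tfrc, a known target of hypoxia-inducible factors, held a match: 1 ACGTG, shared by its 2 overlapping windows and shown here in capitals within 30 bases.

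Tfrc, chr16:32608882-32608911 on GRCm38.p6, plus strand: ctcggtaggtgtACGTGcggaaggaagtga

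The match is a description of the sequence and not a measured site. The array files give no data on binding or on methylation there.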

How the data were processed

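The deposited scanner files came from Agilent Feature Extraction 10.7.3.1, with probe positions on mm9, per the file headers. The intensity of every spot in the deposited files is that software's processed signal, after its own background treatment, per the file headers, and 12 arrays were used. No spot was saturated. These were then put on the log2 scale, minus each array's 75th percentile. Spots marked as outliers were left out, spots of a probe were averaged, and a probe was tested if all arrays of 1 or both compared groups held it well above background. limma 3.58.1 in R 4.3.3 fitted 4 group means over the 12 arrays, with Benjamini-Hochberg adjustment over all probes tested, and was tested on simulated data. The spread of a probe was shared by the 4 groups, so the iPSC p-values also rest on the spread of the mESC arrays. Precision is limited by how many arrays there are.

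The deposited series table holds log2 values, with medians of 6.58 to 6.61, whose centring is not stated per the labels; it served as an alternative. A gene was represented by its brightest probe over the 12 arrays. Of the probes, 27656 were named through an accession, 3401 by symbol, 307 by synonym and 1788 as in the file, and 22529 had no name. The 10 genes, the other lists and the tests were chosen with earlier results of these data known. Named in the text were all 10 genes with every probe, up to 2 of the largest falls and 2 of the largest rises among the genes that passed in each other list, the 5 genes most like Slc40a1, and the Tbx3 probe; marker genes given with values were chosen after their values were seen. Some genes that this rule names are not reported here.

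Samples share replicate numbers in the labels. The deviations of same-numbered mESC samples from their group means correlated at 0.154, 0.244, 0.166 and 0.12. Those of other-numbered mESC samples in the same slide row correlated at 0.041, 0.338, 0.216 and 0.126. Pairing by number could thus not be told apart from slide row, and the main fit used neither. In the iPSC the correlation of same-numbered samples was 0.003. Other settings tried were normexp correction (offset 50), quantile normalization, scaling on detected probes, no filter on dim probes, array weights, the mean of a gene's probes, the 2 compared groups alone, the replicate block, slide row as a block or alone, the series table and leaving out each array.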

Additional observations from a re-analysis of the deposited data

Results flagged for a closer look

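In the groups of 4 mESC arrays, 36 sets of probe values were examined for a single array standing far from the other three, and 5 stood out, where chance gives about 1 in 20. Heph probe A_55_P1994194 read -4.2 on Tbx3-high replicate 1, and the gap to the nearest of the others was 0.945 of the group's range. Heph probe A_52_P498219, which was not above background, read -7.43 on the same array (0.847) and -6.65 on Tbx3-low replicate 3 (0.882). Slc11a2 probe A_51_P388737 read -1.27 on Tbx3-high replicate 4 (0.881). Ireb2 probe A_52_P77332 read -0.15 on Tbx3-low replicate 3 (0.935).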

How the results depend on the processing

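Of the values of single probes under all alternatives, 285 in the mESC and 188 in the iPSC kept their direction and their side of the threshold. In the mESC 15 lost a call, 3 gained one and 11 changed sign, and in the iPSC 13 lost a call, 9 gained one and 4 changed sign. The count of iron genes that passed in the iPSC was 4; it was 7 in the series table and 3 to 4 as each array was left out. In the mESC the count was 4, with 2 in slide row 2 alone and 4 as each array was left out. The mESC counts are a description only, because that comparison chose the set. Slc40a1 in the iPSC passed under normexp correction (0.401) and in the series table (0.386), and was 0.245 to 0.512 as each array was left out. With the replicate block the counts stayed at 4 in the iPSC and at 4 in the mESC; the block ended the calls of Tfrc A_65_P06446 in the iPSC and Tfrc A_51_P167876 in the mESC and no other call of these 10 genes.

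In the mESC the sign changed for Aco1 with array weights (0.032), in slide row 1 (0.038) and without high replicate 1 (0.041), low replicate 3 (0.018) or low replicate 4 (0.051). It changed in slide row 2 for Hmox1 A_51_P263965 (0.224), Hmox1 A_55_P2029687 (0.31) and Steap3 A_55_P2096887 (0.058), for Hmox1 A_55_P2029687 without low replicate 1 (0.01) or 2 (0.008), and for Slc11a2 A_52_P254298 without high replicate 4 (-0.037). In the iPSC it changed for Heph A_55_P1994190 under normexp correction (0.156) and without null-labelled replicate 1 (0.28), and for Steap3 A_55_P2096883 without null-labelled replicate 1 (0.142) or wild-type replicate 2 (0.008). As each array was left out, these ran from -0.061 to 0.051 for Aco1, -0.293 to 0.01 for Hmox1 A_55_P2029687 and -0.037 to 0.203 for Slc11a2 A_52_P254298 in the mESC, and from -0.88 to 0.28 for Heph A_55_P1994190 and -0.421 to 0.142 for Steap3 A_55_P2096883 in the iPSC. None of these values passed in the fit of all arrays, and the cause was not tested.

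Scaling on detected probes moved the median change of all iPSC genes by -0.11 and turned 3439 higher and 2715 lower genes into 2619 and 3395. The other listed genes higher in the iPSC, the Nrf2 list included, numbered 27, against 14 with the iPSC groups alone. In the mESC 14 higher and 13 lower became 7 and 8 in slide row 1 and 2 and 7 in slide row 2, where fewer arrays were used. All mESC genes that passed numbered 4926, against 1619 higher and 1427 lower in row 1 and 1110 and 1215 in row 2.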
